A study of Mus musculus with 6 samples.

Results

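The transcripts described here are those of 40 megakaryocyte and platelet genes. They were chosen by name for their roles in that lineage, but with earlier results of these data known. Of the 40, 39 had a probe set with a single gene symbol, among 19661 genes measured in all. The antisense transcript Gfi1bos had none and is not analysed here. Each of the 39 had 1 probe set, so no choice between probe sets was needed. The cells were mouse megakaryocyte-erythroid progenitors, sorted from bone marrow of the B6.129 strain as lineage-negative, Kit-positive, Sca1-negative, CD34-negative cells with low FcγRII/III. The donors carried a Fog1 knock-in on both alleles (Fog1ki/ki, 3 arrays) or were wild type at Fog1 (Fog1+/+, 3 arrays). What the knock-in alters, how many animals each array holds and their age are not in the labels. The arrays are called biological replicates, and p-values measure only the spread between these arrays. As far as the study is known, the knock-in protein has lost its contact with the NuRD complex of chromatin proteins, and the question is which genes need that contact.

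Megakaryocyte-erythroid progenitors give rise to red cells and to megakaryocytes, which shed platelets. A maturing megakaryocyte makes integrins and glycoproteins for adhesion, receptors for thrombin, ADP and thromboxane, granules filled with chemokines and adhesive proteins, and the microtubule coil that shapes the platelet. GATA1 with its cofactor FOG1, RUNX1, the ETS factor FLI1 and NF-E2 drive these genes as background knowledge of the lineage. Values are RMA values on the log2 scale, so that 1 unit is a doubling, and a difference is Fog1ki/ki minus Fog1+/+. In bulk samples, fewer cells of a type and less RNA per cell cannot be told apart.

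Arrays stood apart in sex-linked genes. Replicate 3 of each genotype had low Y-linked values (Eif2s3y at 3.46 in Fog1ki/ki and 3.21 in Fog1+/+, against at least 9.29 elsewhere) and high Xist (11.03 in Fog1ki/ki and 11.02 in Fog1+/+). Fog1ki/ki replicate 2 had high values of both, with Eif2s3y at 9.44 and Xist at 9.13, where the other arrays with high Y-linked values had Xist at 5.18 to 5.90. Without both replicates 3 the log2 difference was 1.11 for Pf4, 0.885 for Plek and -0.335 for Cxcr4. Without Fog1ki/ki replicate 2 it was 0.702 for Pf4, 0.775 for Plek and -0.443 for Cxcr4, and 0 of the 39 genes described here passed the test.

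None of the 39 genes passed limma's test at a Benjamini-Hochberg adjusted p under 0.05 over all genes (0 of 39), against 0.773% of all genes (0.376% higher and 0.397% lower in Fog1ki/ki). At an unadjusted p under 0.05, 6 were higher in Fog1ki/ki and 2 lower in limma, which is 15.4% and 5.13% of the 39, beside 4.99% and 4.58% of all genes. In 7 genes every Fog1ki/ki array lay above every Fog1+/+ array (17.9%, beside 8.31% of all genes), and in 4 every Fog1ki/ki array lay below (10.3%, beside 6.53%). Because the list was chosen with earlier results known, its shares were not tested against those of all genes. The median log2 difference of the 39 was 0.04, with quartiles of -0.05 and 0.13, and that of all genes was 0.02. The single differences ran from -0.38 for Cxcr4 to 0.97 for Pf4. With quantile normalization repeated the median of the 39 was -0.005, beside 0.004 for all genes. With arrays centred on their medians it was 0, beside -0.02 for all genes. So the list as a whole had no direction that held under every scaling. Under both of these scalings 5 genes in place of 7 lay above without overlap (Itga2b, Trpc6, Pf4, Plek and Nfe2), and 4 lay below. Of all genes 7.36% lay above and 6.69% below with quantile normalization repeated, and 5.03% and 8.7% with arrays centred. With arrays centred F2r took the place of F2rl2 among the 4 below.

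**Figure D1:**
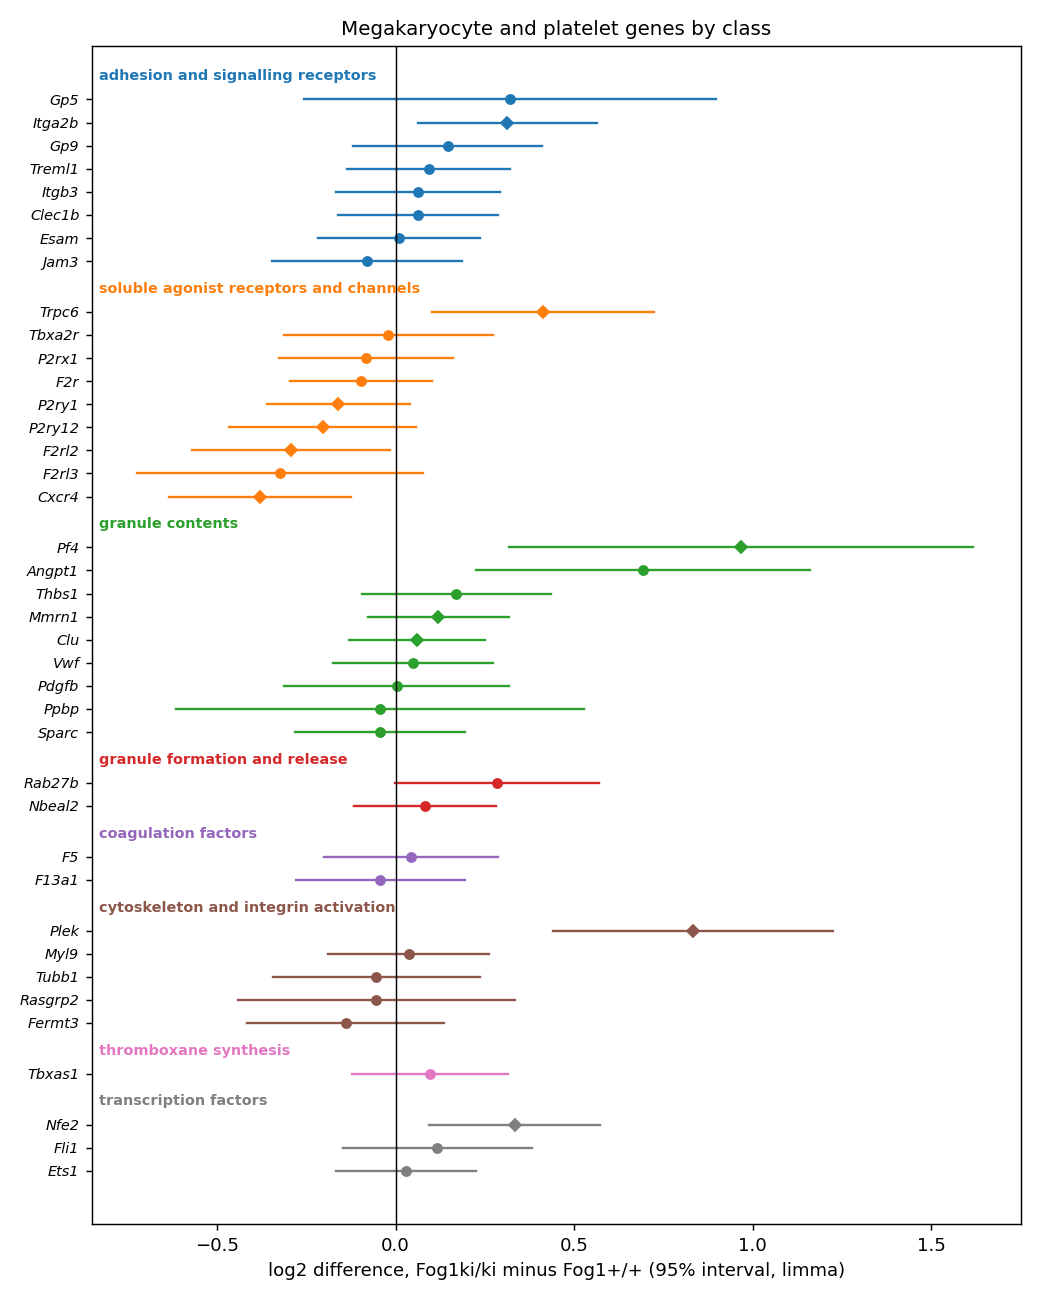
Log2 difference, Fog1ki/ki minus Fog1+/+ (horizontal axis), of the 39 measured genes, grouped by class, with 95% intervals from limma (n = 3 arrays each). Diamonds mark the 11 genes whose arrays did not overlap between the genotypes, and 8 of the 9 receptors and channels for soluble agonists lie left of 0.

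The promoters of 6 genes are shown because these genes had no overlap between the genotypes and an unadjusted limma p under 0.05. The other gene of that kind was Nfe2. Each sequence, from RefSeq on GRCm38.p6, runs 5′ to 3′ over 250 bases before and 50 bases after the annotated start of the gene. They are chr11:17008669-17008968 (minus strand) for Plek, chr5:90772185-90772484 (plus strand) for Pf4 and chr11:102469834-102470133 (minus strand) for Itga2b. Those of Trpc6, Cxcr4 and F2rl2 are chr9:8543892-8544191 (plus strand), chr1:128592250-128592549 (minus strand) and chr13:95696670-95696969 (plus strand). Capitals mark matches, on either strand, to letters bound by transcription factors. The GATA letters were AGATAA or AGATAG as well as TGATAA or TGATAG, and the ETS letters were CAGGAA or CCGGAA. The RUNX letters were TGTGGT or TGCGGT, and the letters of NF-E2 and AP-1 were TGAGTCA, searched on both strands.
Plek: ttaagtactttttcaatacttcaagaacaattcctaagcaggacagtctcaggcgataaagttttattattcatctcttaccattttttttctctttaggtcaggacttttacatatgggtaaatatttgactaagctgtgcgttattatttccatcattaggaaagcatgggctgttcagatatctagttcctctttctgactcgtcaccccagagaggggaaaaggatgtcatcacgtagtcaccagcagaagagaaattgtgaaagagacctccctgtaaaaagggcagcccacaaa
Pf4: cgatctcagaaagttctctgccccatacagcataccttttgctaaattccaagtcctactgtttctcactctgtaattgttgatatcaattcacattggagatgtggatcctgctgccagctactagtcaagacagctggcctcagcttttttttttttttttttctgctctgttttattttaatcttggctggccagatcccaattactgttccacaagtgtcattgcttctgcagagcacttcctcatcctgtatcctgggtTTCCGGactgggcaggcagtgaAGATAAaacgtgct
Itga2b: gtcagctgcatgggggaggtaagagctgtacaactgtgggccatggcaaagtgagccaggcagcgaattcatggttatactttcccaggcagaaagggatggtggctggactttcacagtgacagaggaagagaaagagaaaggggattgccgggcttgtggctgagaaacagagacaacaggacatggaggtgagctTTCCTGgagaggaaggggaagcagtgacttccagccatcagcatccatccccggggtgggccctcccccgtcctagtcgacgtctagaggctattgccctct
Trpc6: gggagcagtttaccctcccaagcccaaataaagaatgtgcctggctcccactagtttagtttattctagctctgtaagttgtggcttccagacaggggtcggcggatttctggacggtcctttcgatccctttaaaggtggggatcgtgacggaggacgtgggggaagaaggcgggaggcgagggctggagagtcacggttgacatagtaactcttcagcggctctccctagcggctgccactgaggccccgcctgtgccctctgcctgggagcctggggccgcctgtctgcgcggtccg
Cxcr4: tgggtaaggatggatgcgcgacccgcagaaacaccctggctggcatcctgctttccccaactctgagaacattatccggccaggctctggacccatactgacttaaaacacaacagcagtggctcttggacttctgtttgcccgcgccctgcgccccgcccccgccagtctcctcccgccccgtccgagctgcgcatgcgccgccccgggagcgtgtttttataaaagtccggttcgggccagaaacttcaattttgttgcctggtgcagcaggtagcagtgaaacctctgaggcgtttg
F2rl2: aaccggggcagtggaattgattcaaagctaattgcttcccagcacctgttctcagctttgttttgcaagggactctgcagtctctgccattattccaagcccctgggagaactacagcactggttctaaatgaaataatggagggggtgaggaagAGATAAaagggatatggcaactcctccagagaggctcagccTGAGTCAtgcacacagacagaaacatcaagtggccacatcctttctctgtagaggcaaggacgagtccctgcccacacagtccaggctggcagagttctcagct
The Pf4 window held an ETS match that begins 14 bases after the start and a GATA match that begins 36 bases after it. The Itga2b window held an ETS match that begins 52 bases before the start. The F2rl2 window held a GATA match 95 bases and an NF-E2 match 54 bases before the start. The windows of Plek, Trpc6 and Cxcr4 held none of these letters. No match says only that the letters are not in this window. Among all 32851 windows in the table, 29.8% held the GATA letters, 41.4% the ETS letters, 22.4% the RUNX letters and 5.2% the NF-E2 letters. Of the 27 genes of the list with a window, 7 held the GATA letters (25.9%), 13 the ETS letters (48.1%), 6 the RUNX letters (22.2%) and 2 the NF-E2 letters (7.41%). The GATA letters were in the windows of Clec1b, F2rl2, F2rl3, Gp5, Mmrn1, P2rx1 and Pf4, genes with log2 differences on both sides of 0. In 1 window, that of Fermt3, matches of 2 groups overlapped (ETS and RUNX).

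Of the 8 receptors for adhesion and their relatives, 7 had log2 differences above 0, where 56.3% of all genes did, and 1 below, with a median of 0.08, and none passed the test (0 of 8 in limma, 1 at an unadjusted p under 0.05). With quantile normalization repeated or with arrays centred on their medians, 6 of the 8 lay above 0. The count was 5 of the 8 without both arrays with low Y-linked values and 7 of the 8 without Fog1ki/ki replicate 2. Itga2b, the αIIb chain of the platelet fibrinogen receptor and an early marker of the lineage, measured 6.73, 6.84 and 6.86 in Fog1ki/ki arrays, against 6.67, 6.32 and 6.50 in Fog1+/+ arrays. The lowest Fog1ki/ki array stood just above the highest Fog1+/+ array, and the log2 difference was 0.31 (SE 0.11, limma adjusted p = 0.367). Its partner chain Itgb3 measured 5.45, 5.39 and 5.66 in Fog1ki/ki arrays, against 5.45, 5.48 and 5.38 in Fog1+/+ arrays, so the genotypes overlapped. The log2 difference of Itgb3 was 0.06, with a 95% interval from -0.17 to 0.29.

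Gp5 and Gp9 encode subunits of the receptor complex for von Willebrand factor. Gp5 measured 8.57, 8.25 and 8.03 in Fog1ki/ki arrays, against 8.44, 7.35 and 8.10 in Fog1+/+ arrays. The genotypes overlapped, and Fog1+/+ replicate 2 stood far below the other Fog1+/+ arrays. The log2 difference of 0.32 (95% interval from -0.26 to 0.90) became 0.01 without that array. Gp9 had a log2 difference of 0.15 (SE 0.12), with overlapping arrays. The probe set that Gp1bb shares with Septin5 belongs to no single gene and had a log2 difference of -0.04.

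Treml1, a receptor stored in the α-granule membrane, had a log2 difference of 0.09 (95% interval from -0.13 to 0.32). Clec1b, the podoplanin receptor CLEC-2, was dim, with a mean of 3.77 in Fog1ki/ki arrays and 3.70 in Fog1+/+ arrays, below the lower quartile of every array (4.81 to 4.92). The junction proteins Esam and Jam3 had log2 differences of 0.01 and -0.08. Jam3, the lowest of the class, measured 5.28, 5.47 and 5.46 in Fog1ki/ki arrays, against 5.27, 5.56 and 5.62 in Fog1+/+ arrays, so that the Fog1ki/ki arrays lay within the Fog1+/+ range. Endothelial cells also express Esam and Jam3, and of 10 endothelial and stromal markers none passed the test (0 in limma, 0 at an unadjusted p under 0.05), with a median log2 difference of 0.03. The mean level of those markers was 5.40 to 5.65 in Fog1ki/ki arrays and 5.48 to 5.55 in Fog1+/+ arrays.

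Receptors and channels for soluble agonists stood mostly on the other side of 0. Of the 9, 8 had log2 differences below 0, where 42.8% of all genes did, and the median was -0.16. The count was 8 of 9 also with quantile normalization repeated, with arrays centred on their medians, without both arrays with low Y-linked values and without Fog1ki/ki replicate 2. None of the 9 passed limma's test (0 of 9, and at an unadjusted p under 0.05 there were 1 higher and 2 lower). In 4 of them every Fog1ki/ki array lay below every Fog1+/+ array (44.4%, beside 6.53% of all genes), and in 1, Trpc6, every Fog1ki/ki array lay above (11.1%, beside 8.31%). Both receptor classes together, 17 genes, had 8 log2 differences above 0 and 9 below, with a median of -0.02. Without overlap, 2 of the 17 lay above (11.8%, beside 8.31% of all genes) and 4 below (23.5%, beside 6.53%). The opposite directions are thus seen only with the receptors split into these 2 classes. No difference between classes was tested.

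Cxcr4, the receptor for CXCL12 that holds megakaryocytes and progenitors in the marrow, measured 9.54, 9.60 and 9.28 in Fog1ki/ki arrays, against 9.86, 9.95 and 9.75 in Fog1+/+ arrays. The genotypes did not overlap. The log2 difference was -0.38 (SE 0.11, 95% interval from -0.63 to -0.13, limma adjusted p = 0.264), and it ran from -0.44 to -0.28 over 16 alternative settings. CXCR4 is also carried by most other blood cells.

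The 3 thrombin receptor genes lay below 0 together. F2rl2, which encodes PAR3, the cofactor for thrombin on mouse platelets, measured 7.19, 6.91 and 7.21 in Fog1ki/ki arrays, against 7.54, 7.43 and 7.22 in Fog1+/+ arrays. The genotypes were parted by 0.01 between the highest Fog1ki/ki and the lowest Fog1+/+ array, and the log2 difference was -0.29 (SE 0.12, limma adjusted p = 0.491). F2rl3, which encodes PAR4, the signalling thrombin receptor of mouse platelets, measured 5.90, 6.30 and 6.53 in Fog1ki/ki arrays, against 6.43, 6.85 and 6.42 in Fog1+/+ arrays. Here Fog1ki/ki replicate 3 lay above 2 of the Fog1+/+ arrays, and the log2 difference was -0.32 (SE 0.18, limma adjusted p = 0.627). F2r, which encodes PAR1, the main thrombin receptor of human platelets, lies with 1 protein-coding gene between it and F2rl2 on chromosome 13. It measured 7.66, 7.63 and 7.72 in Fog1ki/ki arrays, against 7.74, 7.84 and 7.72 in Fog1+/+ arrays. Its log2 difference was -0.10 (95% interval from -0.30 to 0.10), and the genotypes met at 7.72.

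Receptors for ADP and ATP had differences below 0 that were smaller in size than those of F2rl2 and F2rl3. P2ry1, which couples ADP to calcium release, measured 7.58, 7.59 and 7.58 in Fog1ki/ki arrays, against 7.79, 7.79 and 7.65 in Fog1+/+ arrays. The genotypes did not overlap, and the log2 difference was -0.16 (95% interval from -0.36 to 0.04, limma adjusted p = 0.631). P2ry12, the ADP receptor that sustains aggregation, measured 3.90, 4.26 and 4.26 in Fog1ki/ki arrays, against 4.35, 4.32 and 4.36 in Fog1+/+ arrays. All 6 values were dim, below the lower quartile of every array, and the log2 difference was -0.20 (SE 0.12, limma adjusted p = 0.642). P2rx1, an ATP-gated channel, and Tbxa2r, the thromboxane receptor, overlapped between the genotypes, with log2 differences of -0.08 and -0.02.

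Trpc6, a calcium channel opened by diacylglycerol, was the exception in this class. It measured 5.76, 5.75 and 5.94 in Fog1ki/ki arrays, against 5.43, 5.13 and 5.65 in Fog1+/+ arrays. All 3 Fog1ki/ki arrays lay above all Fog1+/+ arrays, and the log2 difference was 0.41 (SE 0.14, 95% interval from 0.10 to 0.72, limma adjusted p = 0.332).

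**Figure D2:**
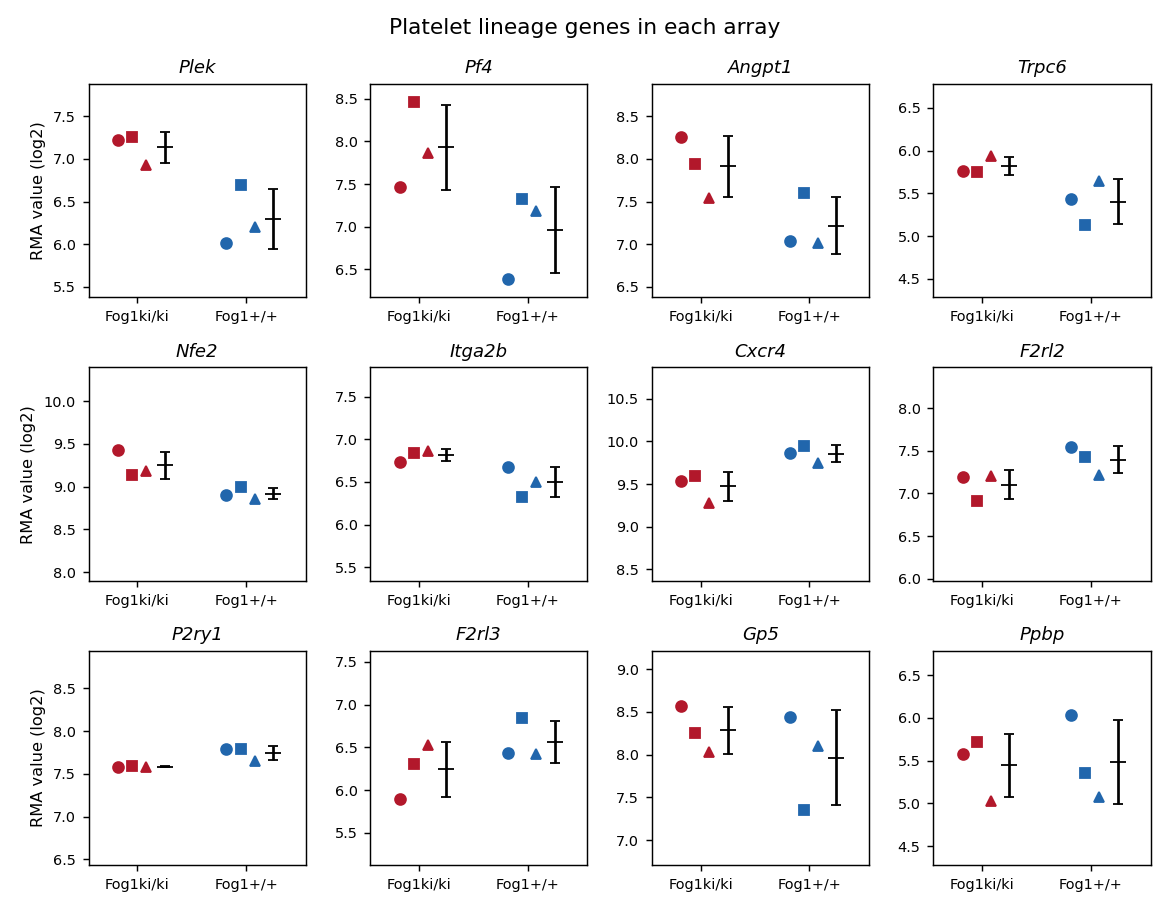
RMA values (log2, vertical axis, all panels spanning the same range) of 12 genes in each array, with circles, squares and triangles for replicates 1, 2 and 3 and black bars for the mean ± SD of 3 arrays. In Plek, Pf4, Trpc6, Nfe2 and Itga2b the 3 Fog1ki/ki arrays lie above the 3 Fog1+/+ arrays, and in Cxcr4, F2rl2 and P2ry1 below them.

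Granule cargo held the largest difference of the list. Pf4, the platelet chemokine of the α-granule, measured 7.47, 8.46 and 7.86 in Fog1ki/ki arrays, against 6.39, 7.32 and 7.18 in Fog1+/+ arrays. The genotypes did not overlap, but arrays of 1 genotype spanned about as much as the genotypes differed. Pf4 averaged 7.93 ± 0.50 in Fog1ki/ki and 6.96 ± 0.50 in Fog1+/+ (SD, n = 3 each), a 1.95-fold ratio of RMA values, with a 95% interval of the log2 difference from 0.32 to 1.62 (limma adjusted p = 0.266). Its neighbour on chromosome 5 is Ppbp, the other abundant platelet chemokine, with 0 protein-coding genes between them in the RefSeq gene order of GRCm38.p6. Ppbp measured 5.58, 5.72 and 5.03 in Fog1ki/ki arrays, against 6.03, 5.36 and 5.07 in Fog1+/+ arrays. The genotypes overlapped throughout, with a log2 difference of -0.04 (95% interval from -0.61 to 0.53), and the difference between the 2 chemokine genes was not tested.

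Angpt1, a ligand of the receptor TIE2 found in megakaryocytes and stem cells, measured 8.25, 7.94 and 7.54 in Fog1ki/ki arrays, against 7.04, 7.60 and 7.01 in Fog1+/+ arrays. Only Fog1ki/ki replicate 3 and Fog1+/+ replicate 2 overlapped. Angpt1 averaged 7.91 ± 0.36 in Fog1ki/ki and 7.22 ± 0.33 in Fog1+/+ (SD, n = 3 each), and the log2 difference of 0.69 did not pass (SE 0.21, limma adjusted p = 0.269). The endothelial marker Tek, the gene of its receptor, had a log2 difference of 0.07.

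The adhesive proteins of the α-granule differed little. Vwf, which bridges platelets to collagen, had a log2 difference of 0.05 (95% interval from -0.17 to 0.27), and Thbs1, thrombospondin 1, one of 0.17 (95% interval from -0.09 to 0.43). Mmrn1, the carrier of factor V in platelets, was dim, with 3.89, 3.81 and 3.91 in Fog1ki/ki arrays, against 3.70, 3.76 and 3.79 in Fog1+/+ arrays, and a log2 difference of 0.12. The chaperone clusterin, Clu, had a log2 difference of 0.06. In both Mmrn1 and Clu the genotypes did not overlap, over gaps of 0.02 and 0.01. Sparc, a matrix protein of the granule, measured 5.55, 5.54 and 5.81 in Fog1ki/ki arrays, against 5.64, 5.76 and 5.63 in Fog1+/+ arrays, and Pdgfb, the platelet growth factor chain, had a log2 difference of 0.00. In all, 7 of the 9 cargo genes lay above 0 (6 with quantile normalization repeated or with arrays centred on their medians), beside 56.3% of all genes, and their median log2 difference of 0.06 was 0.02 with arrays centred. None passed the test (0 of 9 in limma, 2 higher at an unadjusted p under 0.05).

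Rab27b, a small GTPase needed to form and release dense granules, measured 6.21, 6.18 and 5.80 in Fog1ki/ki arrays, against 5.70, 5.88 and 5.76 in Fog1+/+ arrays. Fog1ki/ki replicates 1 and 2 were high and replicate 3 lay within the Fog1+/+ range, and the log2 difference was 0.28 (SE 0.13, limma adjusted p = 0.531). Nbeal2, whose loss leaves platelets without α-granule cargo, measured 6.58, 6.67 and 6.71 in Fog1ki/ki arrays, against 6.55, 6.54 and 6.62 in Fog1+/+ arrays. The genotypes overlapped, and the log2 difference was 0.08 (95% interval from -0.12 to 0.28).

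Both coagulation factors gave values close to the lower quartiles of the arrays and showed no difference beyond the spread. F5, the cofactor of factor Xa, measured 4.95, 4.98 and 4.90 in Fog1ki/ki arrays, against 5.08, 4.89 and 4.73 in Fog1+/+ arrays. F13a1, the subunit that crosslinks fibrin, measured 4.72, 4.79 and 4.82 in Fog1ki/ki arrays, against 4.93, 4.89 and 4.64 in Fog1+/+ arrays. Log2 differences were 0.04 (95% interval from -0.20 to 0.29) for F5 and -0.04 (95% interval from -0.28 to 0.19) for F13a1. The F5 difference was 0 with arrays centred on their medians and -0.01 with quantile normalization repeated. F13a1 is also a monocyte gene, and of 8 monocyte and macrophage markers none passed the test (0 in limma, 1 higher at an unadjusted p under 0.05), with a mean level of 5.23 to 5.31 in Fog1ki/ki arrays and 5.20 to 5.29 in Fog1+/+ arrays.

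Of the cytoskeleton and integrin activation genes, 1 of 5 stood apart. Plek, pleckstrin, the main protein kinase C substrate of platelets, measured 7.22, 7.25 and 6.93 in Fog1ki/ki arrays, against 6.01, 6.69 and 6.20 in Fog1+/+ arrays. The genotypes did not overlap, and Fog1+/+ replicate 2 lay closest to the Fog1ki/ki arrays. Plek averaged 7.13 ± 0.18 in Fog1ki/ki and 6.30 ± 0.35 in Fog1+/+ (SD, n = 3 each), a 1.78-fold ratio with the smallest p of the list (log2 difference 0.83, SE 0.17, limma adjusted p = 0.0911). Without Fog1+/+ replicate 2 the log2 difference was 1.03 and passed the test (limma adjusted p = 0.0227), and over all 16 alternative settings the adjusted p ran from 0.0227 to 0.401.

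Fermt3, kindlin-3, which switches integrins on, measured 7.79, 7.38 and 7.71 in Fog1ki/ki arrays, against 7.84, 7.78 and 7.68 in Fog1+/+ arrays. Its log2 difference of -0.14 (SE 0.12) rested mostly on the low Fog1ki/ki replicate 2, without which it was -0.02. Rasgrp2, the exchange factor that activates Rap1 ahead of the integrin, had a log2 difference of -0.05 (95% interval from -0.44 to 0.33). Tubb1, the β1-tubulin of the platelet microtubule coil, had one of -0.05 (95% interval from -0.34 to 0.24), and Myl9, a myosin light chain, one of 0.04 on dim values (means of 4.77 in Fog1ki/ki and 4.74 in Fog1+/+). The genotypes overlapped in all 4. Tbxas1, thromboxane synthase, measured 5.08, 5.09 and 5.03 in Fog1ki/ki arrays, against 4.87, 5.11 and 4.93 in Fog1+/+ arrays, which overlapped (log2 difference 0.10, SE 0.10).

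Among the transcription factors, Nfe2, the p45 subunit of NF-E2 that is required for platelet release, measured 9.43, 9.14 and 9.18 in Fog1ki/ki arrays, against 8.90, 8.99 and 8.86 in Fog1+/+ arrays. The genotypes did not overlap, and the log2 difference of 0.33 did not pass (SE 0.11, 95% interval from 0.09 to 0.57, limma adjusted p = 0.311). Fli1, the ETS factor that drives megakaryocyte genes, measured 7.27, 7.17 and 7.27 in Fog1ki/ki arrays, against 6.92, 7.11 and 7.33 in Fog1+/+ arrays, with a log2 difference of 0.12 (95% interval from -0.15 to 0.38). Its neighbour Ets1, a related factor also known from lymphocytes, measured 5.18, 5.16 and 5.12 in Fog1ki/ki arrays, against 5.10, 5.08 and 5.19 in Fog1+/+ arrays. Both overlapped between the genotypes, and the Ets1 difference of 0.03 was -0.02 with quantile normalization repeated and -0.01 with arrays centred on their medians.

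The 39 genes varied within a genotype about as other genes did. Their median SD was 0.14 in Fog1ki/ki and 0.10 in Fog1+/+, the same 0.14 and 0.10 as over all genes. The SD was 0.50 in both genotypes for Pf4, 0.27 in Fog1ki/ki and 0.56 in Fog1+/+ for Gp5, and 0.36 in Fog1ki/ki and 0.49 in Fog1+/+ for Ppbp. Set against all 3 Fog1+/+ arrays, Fog1ki/ki replicates 1, 2 and 3 lay above them in 12, 15 and 17 of the 39 genes (30.8%, 38.5% and 43.6%). Over all genes those shares were 28.3%, 33.6% and 38.2%. They lay below all Fog1+/+ arrays in 12, 8 and 6 genes (30.8%, 20.5% and 15.4%), beside 31.3%, 23.9% and 23.4% of all genes. High and low arrays differed from gene to gene: in Angpt1 and Gp5 Fog1ki/ki replicate 1 was the highest, in Pf4 it was replicate 2 and in Trpc6 replicate 3.

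**Figure D3:**
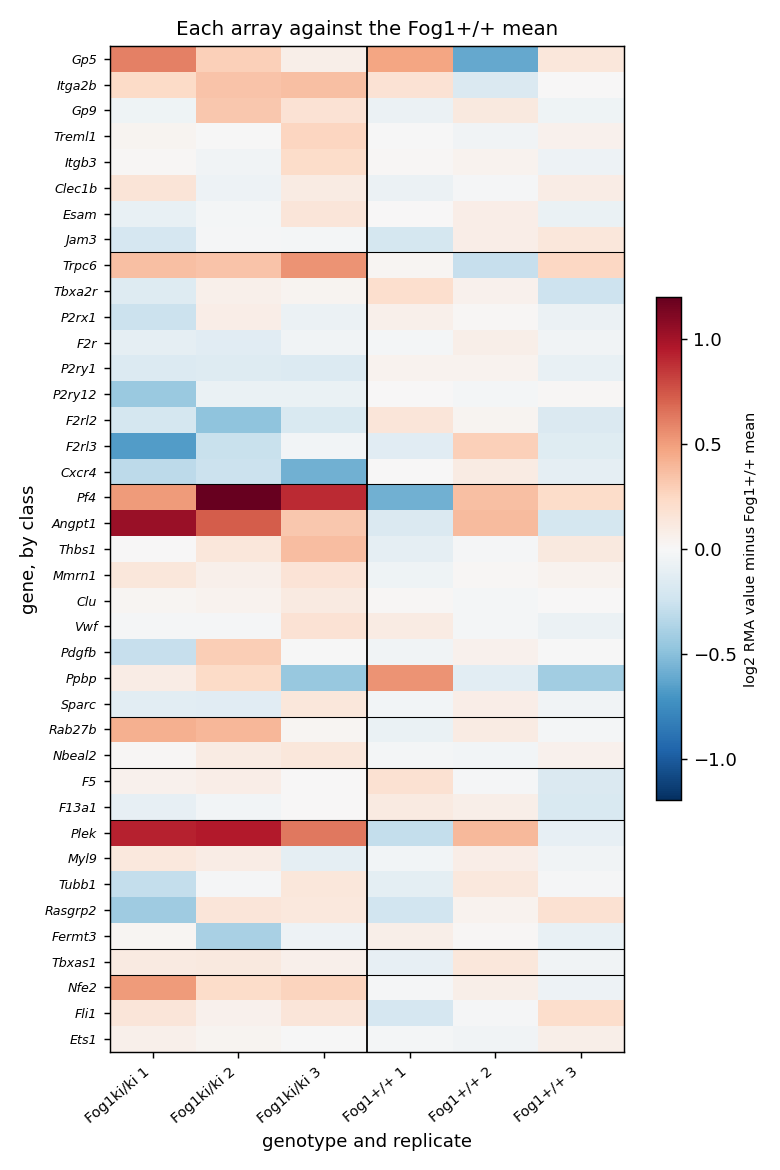
RMA value (log2) of each array minus the mean of the 3 Fog1+/+ arrays (colour) for the 39 genes (rows, by class), with Fog1ki/ki replicates left of Fog1+/+ replicates. Plek, Pf4 and Angpt1 are the rows with the highest Fog1ki/ki values, and most receptors for soluble agonists are below 0 in the Fog1ki/ki columns.

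The other genes of the lineage, from a list of 60 that holds none of the 40, had 50 measured. Of these 1 rose, 1 fell and 48 did not pass in limma, where 0.376% of all genes rose and 0.397% fell. The median log2 difference was 0.05, beside 0.02 for all genes. At an unadjusted p under 0.05 in limma there were 5 above and 3 below 0 (10% and 6%, beside 4.99% and 4.58% of all genes). Without overlap, 9 lay above and 3 below (18% and 6%, beside 8.31% and 6.53%). Ltbp1, which binds latent TGF-β and is made by megakaryocytes, rose to 8.91, 8.80 and 8.63 in Fog1ki/ki arrays, against 7.68, 7.68 and 7.80 in Fog1+/+ arrays. The log2 difference was 1.06 (limma adjusted p = 0.00259). Prkcq, protein kinase C theta, a kinase of platelets and T cells, fell to 5.65, 5.93 and 5.45 in Fog1ki/ki arrays, against 6.77, 6.47 and 6.36 in Fog1+/+ arrays. Its log2 difference of -0.86 passed (SE 0.15, limma adjusted p = 0.0412), and it did not pass in the fits that left out Fog1ki/ki replicate 1, Fog1ki/ki replicate 3 or a Fog1+/+ array (limma adjusted p between 0.0979 and 0.156).

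Genes of the list with the next highest and lowest differences did not pass. Ptger3, a prostaglandin E2 receptor, had a log2 difference of 0.64 (SE 0.17) and Tgfb1, the platelet-stored growth factor, one of -0.41 (SE 0.11), and in both the genotypes did not overlap. Meis1, a homeobox factor of stem cells and megakaryocytes, measured 7.55, 6.74 and 6.70 in Fog1ki/ki arrays, against 6.32, 6.37 and 6.51 in Fog1+/+ arrays. Its genotypes did not overlap, replicate 1 stood far above the other Fog1ki/ki arrays, and the difference on the log2 scale was 0.60 (limma adjusted p = 0.358). Of the other regulators, Gata1 measured 8.47, 8.09 and 8.24 in Fog1ki/ki arrays, against 8.54, 8.56 and 8.57 in Fog1+/+ arrays. All Fog1ki/ki arrays of Gata1 lay below the Fog1+/+ arrays, at a log2 difference of -0.29, which did not pass (limma adjusted p = 0.435, SE 0.11). The log2 difference was 0.23 for Runx1 (SE 0.11, limma adjusted p = 0.590) and 0.05 for Zfpm1, the gene of FOG1 itself (limma adjusted p = 0.948). It was 0.24 for the repressor Gfi1b, with overlap, and 0.14 for Tal1, a factor of early blood cells, without overlap, and neither passed (limma adjusted p = 0.631 and 0.669). Gp1ba is not analysed here.

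**Figure D4:**
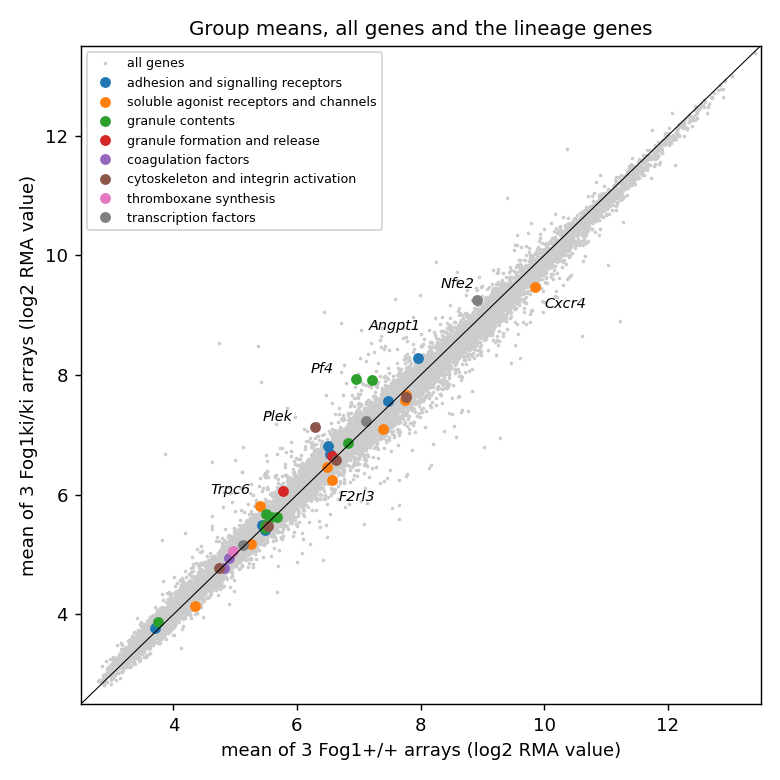
Mean RMA value (log2) of the 3 Fog1ki/ki arrays (vertical axis) against that of the 3 Fog1+/+ arrays (horizontal axis), with all 19661 genes in grey, the 39 lineage genes coloured by class and the line of equality in black. Plek, Pf4 and Angpt1 stand above the line, and Cxcr4 below it.

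Array medians lay between 6.02 and 6.15. Of 9 markers of the sorted progenitors none passed the test (0 in limma). At an unadjusted p under 0.05 in limma 2 were lower, Kit and Gata1 (22.2%, beside 4.58% of all genes). Kit, a marker of the gate, measured 10.05, 9.72 and 9.96 in Fog1ki/ki arrays, against 10.26, 10.30 and 10.30 in Fog1+/+ arrays. Its genotypes did not overlap, and the log2 difference was -0.38 (limma adjusted p = 0.232). The mean level of the 9 markers was 9.28 to 9.46 in Fog1ki/ki arrays and 9.43 in each Fog1+/+ array. Cd34, which the gate excludes, lay at 4.39 to 4.56 in Fog1ki/ki arrays and 4.34 to 4.40 in Fog1+/+ arrays, below the lower quartile of every array. Fcgr3, for FcγRIII, which the gate takes as low, lay above those quartiles, at 5.31 to 5.55 in Fog1ki/ki arrays and 5.21 to 5.40 in Fog1+/+ arrays. Mast cell markers moved with genotype: all 12 had log2 differences above 0 (11 with quantile normalization repeated or with arrays centred on their medians), and 3 rose in limma (Ms4a2, Rgs13 and Alox5). Their mean level was 5.56 to 6.12 in Fog1ki/ki arrays and 4.78 to 4.82 in Fog1+/+ arrays. Of the 9 that did not pass, Fcer1a had a log2 difference of 1.91, Gzmb 1.27 and Cpa3 0.53, and the other 6 differences were between 0.03 and 0.21. Among the mast cell proteases, Cma1 lay at 4.94 to 5.10 in Fog1ki/ki arrays and 4.78 to 4.82 in Fog1+/+ arrays, without overlap. Mcpt4 lay at 3.97 to 4.24 in Fog1ki/ki arrays and 3.79 to 4.08 in Fog1+/+ arrays, below the lower quartiles, and Tpsb2 at 5.77 to 5.83 in Fog1ki/ki arrays and 5.69 to 5.77 in Fog1+/+ arrays, above them. Of 9 basophil and eosinophil markers 7 lay above 0, with a mean level of 5.34 to 5.49 in Fog1ki/ki arrays and 5.11 to 5.16 in Fog1+/+ arrays. Of 11 erythroid markers 10 lay below 0 (8 with quantile normalization repeated) and 1, Xk, fell in limma. None of 10 neutrophil markers or of 8 T and NK cell markers passed the test (0 in limma in both, 1 higher and 1 lower in all at an unadjusted p under 0.05). The neutrophil markers had a mean level of 6.88 to 7.18 in Fog1ki/ki arrays and 6.85 to 7.20 in Fog1+/+ arrays. S100a9 was the brightest of them, with a mean of 10.06 over all arrays. The 1 higher was Retnlg, with a log2 difference of 0.64 and no overlap (limma adjusted p = 0.104). The part of these cell types in the values of Plek, Rab27b, Pf4 and Angpt1 was not tested.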

How the data were processed

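RNA of 6 sorted progenitor samples was extracted with Trizol, amplified (WT-Ovation Pico) and biotin-labelled for 1-colour arrays, 1 array a sample, per the labels' protocols. The authors deposited RMA values, which are log2 values judging by their range. The submitters' processing notes name RMA only; software and settings: not given in the sources used here. RMA compresses differences of dim probe sets, no detection calls were used, and precision is limited by the 6 arrays.

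Of 25668 probe sets, 20777 had 1 gene symbol in the platform annotation, 232 several and 4659 none. The highest mean over all arrays chose the probe set of a gene, giving 19661 genes with no filter. Genotype, the single term, was tested over all genes by eBayes after lmFit (R 4.3.3, limma 3.58.1), two-sided and with Benjamini-Hochberg adjustment at a threshold of 0.05. The script was tested on simulated data, with the SDs of the genes shuffled among them. It recovered 18 of 50 simulated differences of 0.5 log2 units, 35 of 50 of 1 and 50 of 50 of 2. A gene that did not pass is therefore not shown to be unchanged. Promoter letters were searched and figures drawn with Python 3.11.15, pandas 2.3.3 and matplotlib 3.10.9, and RefSeq windows matched 27 of 39 genes by symbol.

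The genes and lists were chosen with earlier results of these data known. Values in every array were given, by rule, for genes whose genotypes did not overlap at an unadjusted p under 0.05 and for the highest and lowest of each class; those of Itgb3, F2r, F2rl3, P2ry1, P2ry12, Mmrn1, Angpt1 and Fli1 were added after their values were seen. From the other lineage genes the rule took those past the threshold, the next extremes and the regulators Gata1, Runx1 and Zfpm1; Gfi1b and Tal1 were added after their values were seen. Alternatives were other scalings, filters, variance models, thresholds, a replicate block, a term for or omission of arrays with low Y-linked values, and leaving out each array.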

Additional observations from a re-analysis of the deposited data

How the results depend on the processing

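Over 16 refitted settings, 272 values of the 18 genes given by rule in every array kept their direction and side of the threshold, 11 changed direction and 2 came past the threshold. The median log2 difference of the 39 genes, 0.0433, was -0.00528 with quantile normalization repeated and 0 with arrays centred on their medians, and 0.0267 to 0.0767 with each array left out. That of all genes, 0.0233, was 0.00444, -0.02 and 0.00667 to 0.0383 in the same settings. The count of lineage genes past the threshold was 0 and became 1 at an adjusted p under 0.1 (Plek) and 0 to 1 with each array left out (Plek without Fog1+/+ replicate 2). The 11 genes without overlap became 23 without both arrays with low Y-linked values (14 higher and 9 lower, beside 17.7% and 15.1% of all genes). They became 12 to 17 with each array left out, beside 12.4% to 20.2% of all genes above and 9.27% to 11.9% below. In both cases fewer arrays can overlap. The count was 9 with quantile normalization repeated or arrays centred (5 higher, 4 lower). It was also 9 with the dimmest genes left out (6 higher, 3 lower), beside 8.17% and 8.21% of the genes kept. Of the other lineage genes, 1 in place of 2 passed with all probe sets tested, with array weights and without both arrays with low Y-linked values, and 1 to 2 with each array left out, Prkcq being the one lost and Ltbp1 kept in all 16 (adjusted p from 0.00143 to 0.042).

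With the replicate number as a block, 1 lineage gene passed, Pf4 (log2 difference 0.967, limma adjusted p = 0.0191). Deviations of same-numbered arrays from their genotype means correlated at 0.0683, -0.00755 and 0.128 over all genes, where not every array matched its own number best, and at 0.437, 0.31 and 0.323 over the 39 genes, where each did. Since not every value over all genes was above 0.1, the numbers were not taken as a pairing; the second set is a hint from the data, not the design.

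Changes of direction were those of differences near 0: F5 at -0.00722 (quantile normalization repeated), 0 (arrays centred), -0.02 (without both arrays with low Y-linked values) and -0.0417 to 0.133 (each array left out), and Ets1 at -0.0156 (quantile normalization repeated) and -0.0133 (arrays centred). Ppbp was at 0.0117 with array weights and at -0.252 to 0.228 with each array left out. With each array left out, F13a1 ran from -0.133 to 0.0117 and Sparc from -0.132 to 0.00333. The cause was not tested.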
